A study of Mus musculus with 56 samples.

Results

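Nuclear genes of oxidative phosphorylation (OXPHOS) were examined in single cells (SCs) of a primary mouse pituitary culture. Members were the protein-coding genes of the count table whose symbol starts with Ndufa, Ndufb, Ndufc, Ndufs, Ndufv, Sdha to Sdhd, Uqcr, Cox4, Cox5, Cox6, Cox7, Cox8 or Atp5. The rule took 97 of 21560 protein-coding rows (47069 gene rows in all). Of these, 83 encode subunits: 36 of complex I, 4 of complex II, 8 of complex III, 19 of complex IV and 16 of complex V, with Ndufa4 and its paralogue Ndufa4l2 placed in complex IV. The other 14 are assembly factors or other proteins. The cells came from whole pituitaries of randomly cycling female C57BL/6 mice aged 10 to 12 weeks, 5 glands making up a sample. The glands were dispersed to single primary cells, which grew untreated for 4 days and were then held in the stabilizing reagent RNA-Best. After filtration, SCs were captured on a Fluidigm C1 circuit made for small cells, so larger cells are missing, and SMART-Seq v4 made cDNA along whole transcripts. All 56 wells carry the same labels, with no treatment or separate animal, so they are 1 sample. Differences between wells could therefore not be checked in replicates or tested, and each interval is an exact 95% interval that covers counting error only.

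OXPHOS is the last stage of aerobic energy production in the inner mitochondrial membrane. Complexes I and II take electrons from NADH and succinate, complex III passes them on through cytochrome c, and complex IV, cytochrome c oxidase (COX), gives them to oxygen. The proton gradient built by complexes I, III and IV drives complex V, the ATP synthase. Complexes I, III, IV and V each combine nuclear subunits with subunits encoded by mitochondrial DNA, and complex II is wholly nuclear. Several COX subunits exist as a ubiquitous form and a form of heart and muscle, lung or testis. Hormone-producing pituitary cells synthesize and release large amounts of peptide.

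The deposited values are estimated read counts per gene. Levels are given as CPM, the count scaled to 1000000 gene counts per well without the ERCC spike-ins. The 46 wells with at least 100000 gene counts were used (median 1192620, range 111195 to 12563266), with a median of 8259 genes per well. Spike-ins took 0.144% to 66.1% of counts. Rows other than protein-coding genes took a median of 5.87% of gene counts but over 14% in 3 wells, B3, D2 and A11. Plate columns 1 to 3 and 7 to 9 held 29 of these wells and columns 4 to 6 and 10 to 12 held 17; this division stands apart in earlier results of these data and is used here as a set of wells. C10 and C11 were more alike than any other of 1035 pairs of wells (Pearson r 0.96 of log2(CPM + 1) over 7058 genes, median pair 0.43); without C11 the median summed level given below was 28844 CPM. The label of pituitary cells was checked on 12 markers of hormone cells, whose summed level had a median of 297056 CPM (range 10142 to 812719). H4 had 18897 CPM of these, 1.44% Prl and 8855 CPM of endothelial markers, with 4 of 5 such markers at 10 CPM or more. The summed level of endothelial markers was highest in H4, and the most of them at 10 CPM or more in any well was 5. H4 is counted among Prl-led wells below by the rule used, and its part was not tested.

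To find out how much of the transcriptome of these cells was given to the respiratory chain, the 83 subunit genes were summed in each well. They made up a median of 2.84% of gene counts, from 0.531% in A3 to 4.68% in E3, or 28384 CPM (quartiles 19705 and 36396, SD 0.86 on the log2 scale, n = 46 wells). Complex I had the highest median sum, 9167 CPM over its 36 genes, followed by complex V with 6306 CPM, complex IV with 5515 CPM, complex III with 3557 CPM and complex II with 780 CPM. These sums are not per length, and they depend on the number of genes summed. Per subunit gene the order was another, with medians of 445 CPM for complex III, 394 for V, 290 for IV, 255 for I and 195 for II. The quartiles of neighbours in this order overlapped for complexes I and V (6308 to 12176 and 4707 to 9192 CPM), V and IV (3201 to 7203 CPM) and IV and III (2138 to 4944 CPM), so these were not apart beyond the spread over wells. Those of complex II, 332 to 1166 CPM, lay below. Complex II varied most, by an SD of 1.44 on the log2 scale and from 18.2 to 2446 CPM, and complex I least, by an SD of 0.91. The sum of complex II holds the fewest genes, 4, and that of complex I the most, 36.

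**Figure D1:**
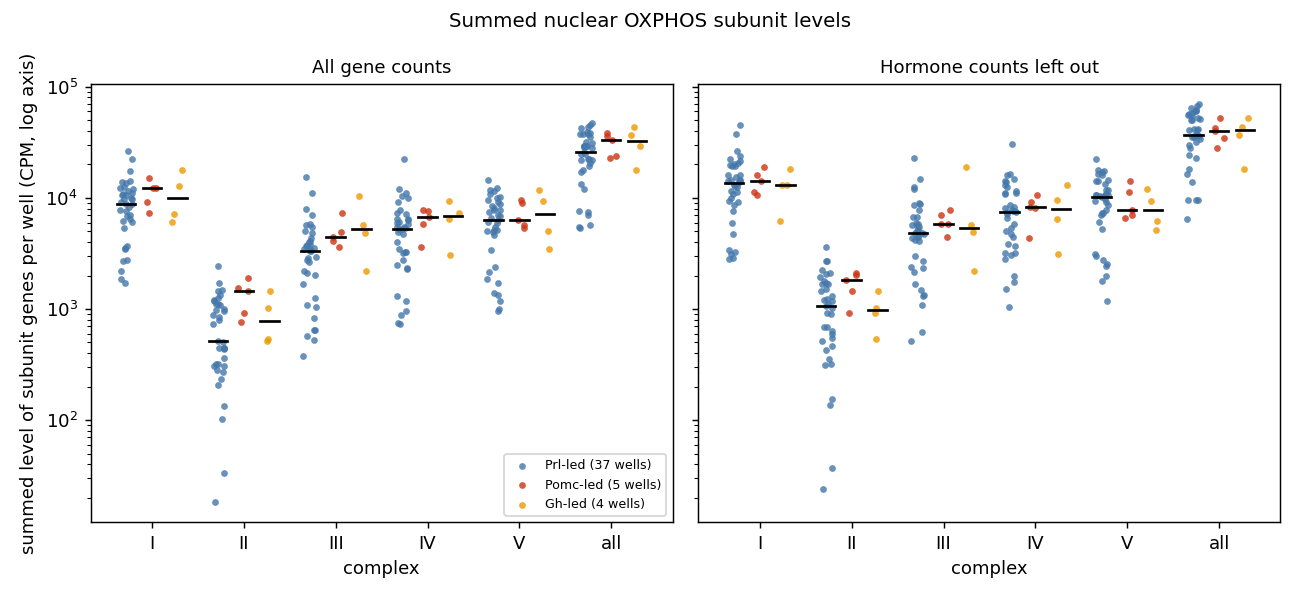
Summed level of the nuclear subunit genes of each complex and of all 83 in each of 46 wells, in CPM on a log axis, over all gene counts (left) and with hormone counts left out (right). Points are wells coloured by leading hormone and bars are medians; Pomc-led and Gh-led wells lie within the range of the Prl-led wells for the sum of all subunits on the left, where the medians are 33330, 32764 and 25677 CPM.

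The 13 mitochondrially encoded genes of the same complexes had a median sum of 1648 CPM (range 313 to 11102). The nuclear sum was higher in all 46 wells, by a median of 13.5 times, from 1.37 times in A11 to 57.0 times in E1. It holds 83 genes against 13, and neither sum is per gene or per length, so the ratio does not compare single genes. Per-well sums were also compared with other large gene groups. The 83 cytosolic ribosomal protein genes summed to a median of 38367 CPM (SD 0.69 on the log2 scale) and the 40 proteasome subunit genes to 9449 CPM (SD 1.01), so the spread of the OXPHOS sum over wells lay between these.

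The lowest sums over all gene counts were 5312 CPM in A3, 5460 in B3, 5697 in A11, 7031 in C2 and 7505 in D2. B3, D2 and A11 were the 3 wells with the high shares outside protein-coding genes, and A3 and A11 had 63.0% and 66.1% of counts in spike-ins. C2 had 77.7% of its gene counts in Prl; with the 7 hormone genes taken out of the total its sum was 37071 CPM, close to the median of 38706 CPM on that scale. Without B3, D2 and A11 the median over all gene counts was 29035 CPM. The part of these library properties in the low sums was not tested.

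Most subunit genes were seen in most cells. At a limit of 1 CPM, 83 of the 97 members were present in at least 23 of the 46 wells, or 85.6%, beside 21.2% of all 21560 protein-coding genes; at 10 CPM the shares were 78.4% and 10.7%. These members were 76 subunits and 7 of the 14 other proteins. A well held a median of 80 members at 1 CPM, from 65 in H4 to 88 in G1; without H4 the lowest was 69 in A10. After every well was thinned to 100000 counts the median was 76 members. Members at 1 CPM or more in all 46 wells numbered 40, and 5 were at 0 in every well.

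**Figure D2:**
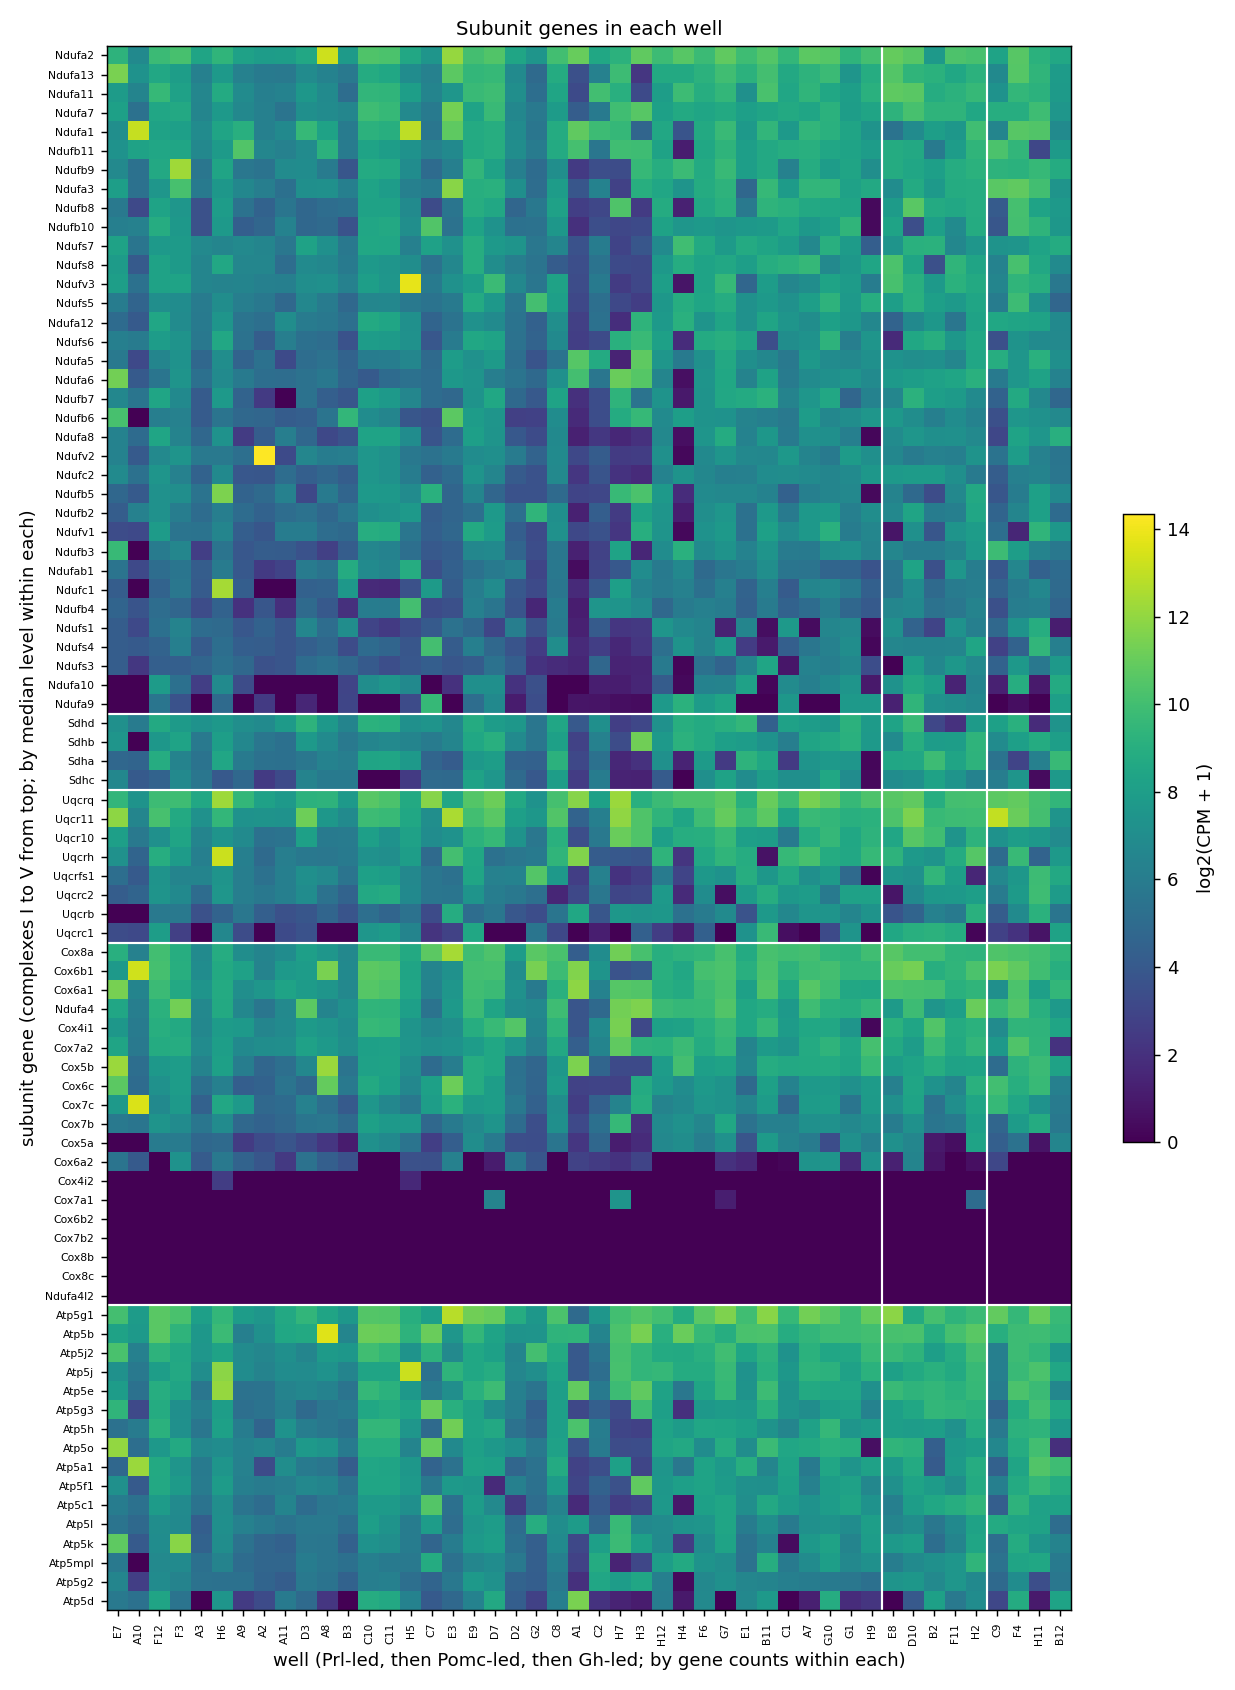
Level of 82 of the subunit genes (rows, complexes I to V from the top, by median level within each) in the 46 wells (columns, by leading hormone and then by gene counts), as log2(CPM + 1). Dark rows at the foot of complex IV are tissue isoforms such as Cox6b2 and Cox8b, at 0 in all wells, and the dark columns include H7, H3 and A1, in which 3, 5 and 6 of 21 core subunits reached 10 CPM.

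A list of 21 subunit genes, called core genes here, was followed. Among them were Ndufs1, Ndufv1 and Ndufv2 of complex I, all 4 of complex II, and Uqcrfs1 and Uqcrc1 of complex III. Others were Cox4i1 and Cox5a of complex IV and Atp5a1 and Atp5b of complex V. The name marks the list and not a place at a catalytic centre, and the 55 other subunits compared are called accessory. A median of 18 of the 21 reached 10 CPM in a well, and all 21 did in 6 wells. In H7 only Cox4i1, Atp5a1 and Atp5b did, although its total was 42365 CPM, with 4724 CPM of Uqcrq, a small subunit of complex III, and 4065 CPM of Uqcr11. H3 held 5 of the core genes and A1 held 6. The accessory subunits were also fewer in these wells, 36, 38 and 24 of 55 against a median of 52 over all wells. Their gene counts were 2411963, 2569599 and 1336020, all above the median over wells. Their spike-in shares were 7.54%, 11.7% and 17.1%, above the median of 6.08%. Rows other than protein-coding genes took 12.2%, 9.98% and 8.42% of gene counts, above the median of 5.87%. H7 and H3 held 9838 and 9028 genes and A1 held 5886, against a median of 8259. The part of these library properties was not tested. Core subunits made up a median of 20.5% of the summed level. Their mRNAs are longer (median 1312 bases against 623), and per kb of mRNA the median core gene had a level of 70.1 CPM and the median accessory gene 245 CPM.

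In some wells the sum rested on a single subunit. The subunit with the most counts took a median of 8.73% of the summed level per well, but 83.8% in A2, where Ndufv2, a core subunit of complex I, had 20787 CPM against a median of 78.3 CPM over wells. In A8 it took 33.3% (Atp5b, 12957 CPM), in H5 32.7% (Ndufv3, 14163 CPM) and in A10 31.3% (Cox7c, 12054 CPM). A10 also had 10060 CPM of Cox6b1, so that complex IV took 58.7% of its sum. All 4 wells had under 1000000 gene counts. The share of the highest subunit had a median of 15.5% in the 21 such wells and 6.73% in the 25 deeper wells. Atp5g1, which encodes the c subunit of the ATP synthase, led in 10 wells, Atp5b in 7, Uqcrq in 6 and Uqcr11 in 5.

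Per kb of mRNA, Uqcrq (chr11:53427922-53430831, minus strand) had the highest median level of the subunit genes, 1975 CPM per kb. In CPM it ranged from 159 to 4842 with a median of 995, and it had the smallest SD over wells of all members with a mean of at least 10 CPM, 1.22 on the log2 scale. Uqcr11, also of complex III, followed with a median level of 1831 CPM per kb, and Ndufa2 of complex I with 1570 CPM per kb (SD 1.30). Uqcrq and Ndufa2 were the only members at 100 CPM or more in all 46 wells. In complex IV Cox6b1 was highest per kb, with a median of 1389 CPM per kb, and Cox8a second with 1269. In complex V it was Atp5e, the epsilon subunit, with 765 CPM per kb. In complex II the iron-sulfur subunit Sdhb was highest, 174 CPM per kb, beside Sdhd with 162. When lengths of all annotated exons were used instead, Uqcr11, Cox8a, Atp5g1 and Sdhd stood first in complexes III, IV, V and II, and Ndufa2 in complex I as before.

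**Figure D3:**
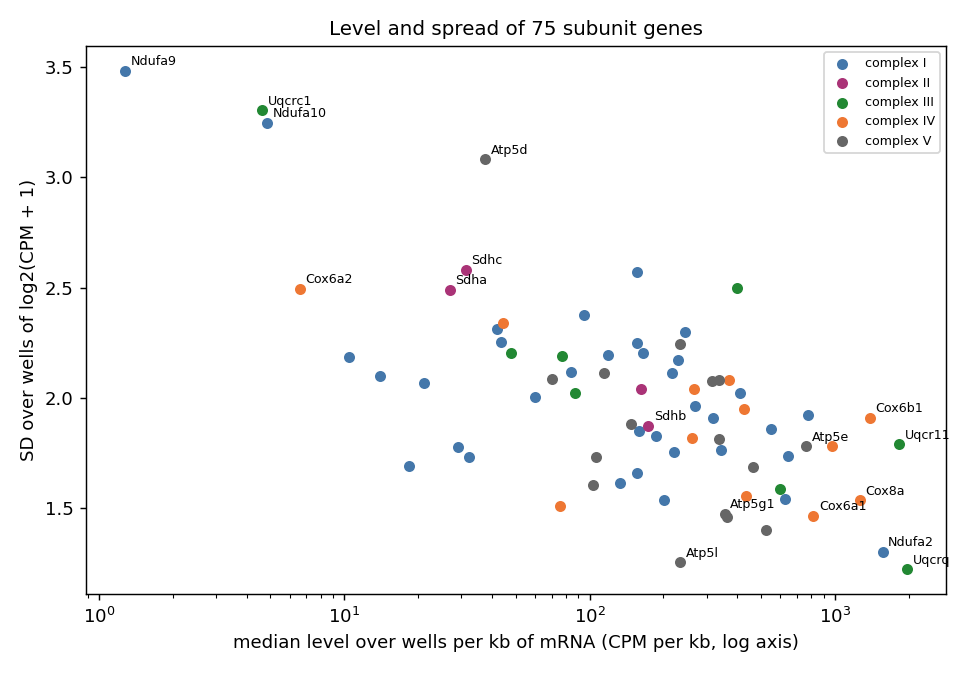
Median level per kb of mRNA (x, CPM per kb, log axis) against the SD of log2(CPM + 1) over 46 wells (y) for 75 subunit genes with a mean of at least 10 CPM, coloured by complex. Uqcrq and Ndufa2 lie at the lower right with SDs of 1.22 and 1.30, and Ndufa9, Uqcrc1 and Ndufa10 at the upper left with SDs of 3.48, 3.31 and 3.25.

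Levels varied widely between wells. The median SD of log2(CPM + 1) was 2.02 over the 84 members with a mean of at least 10 CPM and 2.34 over all 7058 protein-coding genes with such a mean. The members' mean levels were higher (median 206 CPM against 32.5 CPM). With a pseudocount of 10 the order of the medians turned, 1.61 for the members and 1.34 for all genes. Among genes with a mean of at least 100 CPM, the medians were 1.92 over 64 members and 2.31 over 1308 genes. With every well thinned to 100000 counts they were 2.34 over the 84 members and 2.58 over the 7058 genes. The part of depth or cDNA preparation in the spread was not tested.

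A set of 8 subunit genes was split between wells, being under 10 CPM in at least 10 wells and at 100 CPM or more in at least 10. Among them were Ndufa8 and Ndufa9 of complex I, Sdhc of complex II, Uqcrc1 of complex III, Cox5a of complex IV and Atp5d of complex V. This definition was made after the values were seen. Ndufa9 (chr6:126821721-126849136, minus strand), an accessory subunit of complex I, was under 10 CPM in 28 wells and at 100 CPM or more in 14, with only 4 between and a maximum of 780 CPM in C7. Uqcrc1 (chr9:108936633-108949623, plus strand), a core protein of complex III, was under 10 CPM in 28 wells, between in 5 and at 100 CPM or more in 13, with a maximum of 830 CPM in B11. Depth moved with the values of Ndufa9 but less with those of Uqcrc1. Of the 46 wells, 25 had over 1000000 gene counts. These held 12 of the 14 wells with Ndufa9 at 100 CPM or more. For Uqcrc1 it was 8 of 13, near the share of deep wells among all wells. Other split genes also differed in this, with 15 of 18 for Sdhc and 9 of 16 for Ndufa10. The part of depth was not tested. The high wells were not the same for each gene: Spearman's rho over 46 wells, without hormone counts, was 0.63 for Ndufa8 with Ndufa10, but 0.05 for Ndufa9 with Uqcrc1 and -0.08 for Ndufa9 with Atp5d. These correlations share the wells and their depth and are descriptions.

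Cells used the ubiquitous COX isoforms almost throughout. Cox4i2, the lung and vascular partner of Cox4i1, had 3 counts in all, 1 in each of 3 wells, or 0.00483% of the pair (interval 0.000997% to 0.0141%). The testis forms Cox6b2, Cox7b2 and Cox8c, the heart and muscle form Cox8b, and Ndufa4l2, a paralogue of Ndufa4 known from hypoxia and mural cells, had no count in any of the 46 wells. A count of 0 allows up to 0.0227 CPM over the summed wells and, by the exact interval, up to 7.71% of wells. The partners of these genes were abundant: Cox6b1 had a median of 675 CPM (range 11.6 to 10060), Cox8a 698 CPM (18.7 to 5352), Ndufa4 447 CPM (12.7 to 3061) and Cox7b 76.1 CPM (2.92 to 788). None of the ranges of Cox6b1, Cox8a, Ndufa4 and Cox7b reached the 0 of their partners.

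**Figure D4:**
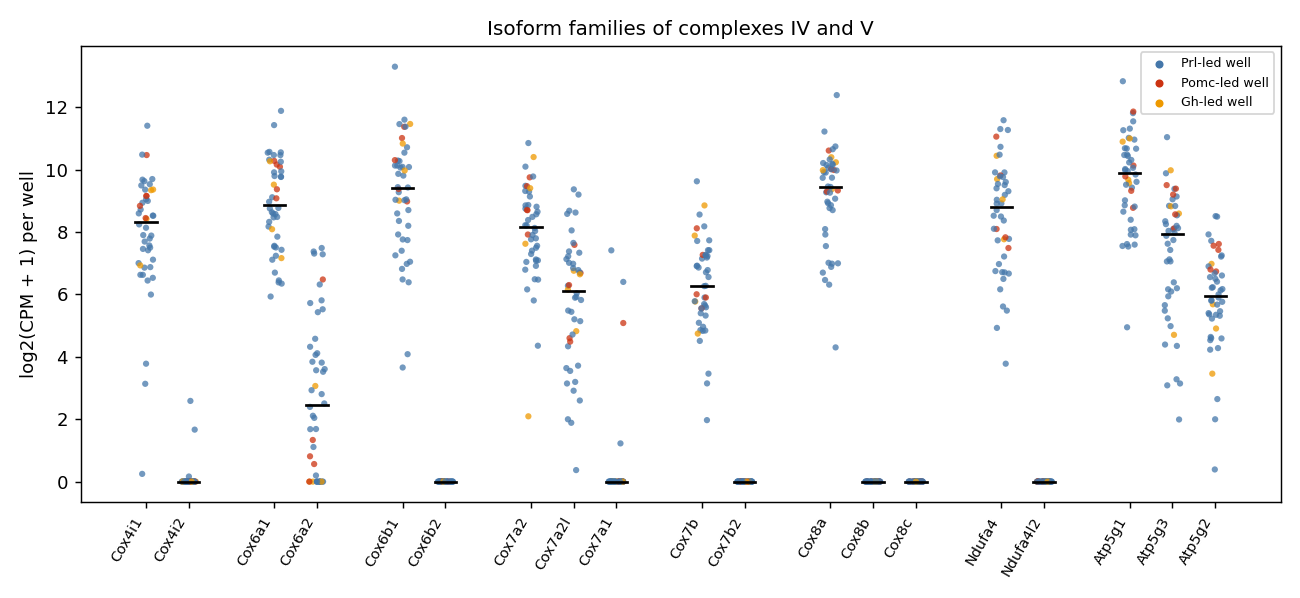
Level of the isoform genes of 8 families as log2(CPM + 1) in 46 wells, with points coloured by leading hormone and bars at medians. Cox6a2 spreads from 0 to 178 CPM and Cox7a1 is above 0 in 4 wells, while Cox6b2, Cox7b2, Cox8b, Cox8c and Ndufa4l2 stay at 0.

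Cox6a2 (chr7:128205435-128206387, minus strand), the heart and muscle form of COX subunit 6a, was the exception. It reached 1 CPM in 30 wells and 10 CPM in 19 (41.3%, interval 27.0% to 56.8%), with a median of 4.47 CPM. In wells of low depth the limit of 10 CPM was passed with few counts. These were 2 in A10, 3 in A2 and A3, 5 in A8, A9, B3, E7 and H5, and 6 in C7, so these wells lie near the counting floor. The value of F3 given below rests on 28 counts. The highest values were 178 CPM in G10, 165 in A7, 157 in H9 and 155 in F3. In these wells Cox6a1 (chr5:115345642-115348981, minus strand), the ubiquitous form, had 961, 1489, 353 and 396 CPM, so Cox6a2 made up 15.6%, 9.96%, 30.8% and 28.1% of the pair. Summed over wells, Cox6a2 gave 4.70% of the counts of the pair (interval 4.57% to 4.83%). The share was 3.27% without H9, which held 34.0% of all Cox6a2 counts, and 0.670% as the median over wells. Cox6a2 overlaps Itgad, and the sources used here do not give the strand setting of the counting. Its counts were whole numbers in all 46 wells.

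Cox6a2 was at 10 CPM or more in 18 of 37 Prl-led wells (48.6%, interval 31.9% to 65.6%), in 1 of 5 Pomc-led wells, D10 with 88.1 CPM, and in none of 4 Gh-led wells, which allows up to 60.2% by the exact interval. Among wells with over 1000000 gene counts it was 4 of 17 Prl-led wells. It reached 10 CPM in 14 of 29 wells of plate columns 1 to 3 and 7 to 9 and in 5 of 17 of the others. Of 5 markers of striated muscle, Ckm, Tnnt3 and Myh4 were under 1 CPM in all wells, and the summed level had a median of 0.386 CPM (0 to 531) where Cox6a2 was at 10 CPM or more and 1.45 CPM (0 to 197) elsewhere. Markers of red blood cells had a median sum of 616 CPM (0.913 to 6132, Alas2 never at 1 CPM) where Cox6a2 was at 10 CPM or more and 57.6 CPM (0 to 146749) elsewhere. The part of red cell RNA, depth or plate position in these values was not tested.

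Cox7a1 (chr7:30184144-30186078, plus strand), the heart and muscle form of COX subunit 7a, was seen in 4 wells: 169 CPM in H7, 83.4 CPM in D7, 32.9 CPM in H2 and 1.34 CPM in G7. It was at 0 in the other 42. It gave 1.06% of the counts of Cox7a1, Cox7a2 and Cox7a2l together, and 0.655% without H2, which held 45.9% of its counts. H7 also had 2041 CPM of endothelial markers, and D7 had 268 CPM of fibroblast, 221 CPM of macrophage and 188 CPM of striated muscle markers. In each of these sums 1 marker of the list was at 10 CPM or more, and the part of these was not tested. Cox7a2, the ubiquitous form, had a median of 287 CPM (range 3.27 to 1844). Cox7a2l, known from supercomplexes of complexes III and IV and not summed with complex IV, had a median of 67.4 CPM (0.292 to 659).

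The c subunit, which forms the rotor ring of the ATP synthase, is made from Atp5g1 (chr11:96068852-96075670, minus strand), Atp5g2 (chr15:102662864-102672352, minus strand) and Atp5g3 (chr2:73908447-73911326, minus strand). They encode the same final 75 amino acids behind different targeting sequences of 61, 115 and 66 codons. The first 60 bases of the 225 that encode this shared end are shown to let a reader see how alike the reads of these genes are, in the GENCODE M21 transcripts, with capitals at each base that differs among them.
Atp5g1: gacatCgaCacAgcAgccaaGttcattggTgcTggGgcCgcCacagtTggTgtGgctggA
Atp5g2: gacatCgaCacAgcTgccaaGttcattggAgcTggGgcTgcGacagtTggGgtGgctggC
Atp5g3: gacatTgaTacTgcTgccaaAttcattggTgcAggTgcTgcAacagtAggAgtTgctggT
Over the 225 bases 57 positions differed among the 3 genes. Atp5g1 and Atp5g2 were 84.9% identical with 20 bases as the longest identical run, Atp5g1 and Atp5g3 80.0% with 11, and Atp5g2 and Atp5g3 78.7% with 8. Atp5g1 had a median of 952 CPM (29.8 to 7281), Atp5g3 242 CPM (2.98 to 2102) and Atp5g2 60.8 CPM (0.310 to 363). By summed counts Atp5g1 gave 75.1%, Atp5g3 19.8% and Atp5g2 5.09% of the family. Per kb of mRNA the shares were 43.6%, 42.9% and 13.5%, since the Atp5g1 transcripts in the annotation are longer, so that Atp5g1 and Atp5g3 were close on that scale. Counts were not whole in 44 wells for Atp5g1 and in 43 for Atp5g2, which shows that reads were divided between features, and were whole in all wells for Atp5g3.

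All 12 assembly factors were below the median subunit in median level per kb (158.8 CPM per kb), and 17 of the 83 subunits were below the highest factor, Sdhaf4 with 27.9 CPM per kb. Of the 12 factors Ndufaf1 to Ndufaf8 and Sdhaf1 to Sdhaf4, 6 reached 1 CPM in at least 23 wells. Ndufaf3 followed with 25.3 CPM per kb, Ndufaf8 with 7.48 and Ndufaf2 with 3.26, the last close to Ndufaf4 with 3.23. Ndufaf3, a complex I factor that overlaps Impdh2, ranged from 0 to 2191 CPM. A list of 48 other genes of the pathway was also followed. At 1 CPM 28 of the 48 were seen in at least 23 wells and at 10 CPM 19. The highest by median CPM were Slc25a5, Cycs, Atpif1, Cox14, Slc25a4 and Uqcc2. Per kb of mRNA their medians were 483 CPM per kb for the complex III factor Uqcc2, 479 for Atpif1, the inhibitor of the ATP synthase, 330 for Slc25a5, 320 for the COX assembly factor Cox14, 116 for Slc25a4 and 90.8 for Cycs, which is cytochrome c. Slc25a4 and Slc25a5 exchange ADP and ATP across the membrane; Slc25a4 varied more over wells, up to 8917 CPM (SD 2.70 on the log2 scale against 1.75). Among regulators of mitochondrial genes, Ppargc1a was at 1 CPM or more in 3 wells, Ppargc1b in 2, Esrra in 1, Nrf1 in 15 and Gabpa in 24, and Tfam in 34.

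To ask whether the OXPHOS level went with the kind of endocrine cell, wells were grouped by their leading hormone, the highest in CPM of Prl, Gh, Pomc, Tshb and the sum of Fshb and Lhb. Prl led in 37 wells, Pomc in 5 and Gh in 4. Lead is a rank and not a cell type: Gh took 30.8% of gene counts in C9 but 1.05% in B12, 1.24% in H11 and 0.538% in F4. The summed subunit level was 23990 CPM in B2, 38167 in D10, 33330 in E8, 22768 in F11 and 36109 in H2, the Pomc-led wells. F11 also had 146749 CPM of red blood cell markers, whose part was not tested. It was 17781 CPM in B12, 29035 in C9, 43328 in F4 and 36492 in H11, the Gh-led wells. The Prl-led wells ranged from 5312 to 46828 CPM with a median of 25677, so that every Pomc-led and Gh-led well lay within their range. On the log2 scale the medians were 0.38 and 0.35 higher than in Prl-led wells, against an SD of 0.92 over those wells. With hormone counts left out the medians were 37071 CPM for Prl-led, 40341 for Pomc-led and 40392 for Gh-led wells.

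When counts were summed over wells, subunit genes took 2.52% of gene counts in Prl-led wells, 3.02% in Pomc-led and 2.87% in Gh-led wells, the order of the medians. Without hormone counts the shares were 4.09%, 3.69% and 2.96%, so that Prl-led wells came first. The summed shares follow the deepest wells, and the 3 groups differed in depth: the median was 862979 gene counts in Prl-led, 5298575 in Pomc-led and 3945964 in Gh-led wells, with spike-in shares of 8.18%, 0.662% and 1.47%. The part of depth was not tested.

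Of the 84 members with a mean of at least 10 CPM, 44 (52.4%) were higher in Pomc-led than in Prl-led wells by at least 1 in mean log2(CPM + 1), beside 33.4% of the 7058 genes compared, and 2 were lower (2.38%), beside 15.0%. The median difference was 1.06 over the members and 0.37 over all genes. In complex I 24 of 36 members were higher by that limit, in complex II 3 of 4, in complex III 4 of 8, in complex IV 3 of 12 and in complex V 6 of 16. For Gh-led wells 28 members (33.3%) were higher, beside 30.1%, which is near the background, and 2 were lower (2.38%), beside 16.6%. The median difference was 0.68 over the members and 0.26 over all genes. The Pomc-led and Gh-led comparisons share the Prl-led wells.

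With hormone counts left out, 34 members were higher and 3 lower in Pomc-led wells, beside 29.8% and 18.8% of all genes, and 16 were higher and 4 lower in Gh-led wells, beside 24.2% and 22.1%. In wells with over 1000000 gene counts, 5 Pomc-led against 17 Prl-led, 39 members (46.4%) were higher and 1 lower, beside 35.6% and 13.1%. There 37 (44.0%) were higher and 4 lower in the 3 Gh-led wells of that depth, beside 43.7% and 16.8%.

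The members with the largest differences in Pomc-led wells were Uqcrc1, Ndufa9, Ndufaf2 and Sdha. Uqcrc1 was at 590 CPM in B2, 535 in D10, 379 in E8 and 470 in F11 but at 0.159 CPM in H2, against a median of 7.47 CPM in Prl-led wells (0 to 830); the difference of mean log2 was 3.94. Ndufa9 had 153, 674, 1.52, 128 and 104 CPM in B2, D10, E8, F11 and H2, against a median of 1.10 CPM in Prl-led wells, a difference of 3.40. Its levels in Gh-led wells were 274 CPM in B12, 0.469 in F4 and 0 in C9 and H11. Sdha, the flavoprotein of complex II, was between 336 and 909 CPM in all 5 Pomc-led wells and had a median of 59.5 CPM in Prl-led wells (0.188 to 623), a difference of 3.11. The groups overlapped for all of these genes. Ndufaf2, a complex I assembly factor, was at 54.9, 13.5, 32.7, 67.0 and 39.6 CPM in the same Pomc-led wells and had a median of 0.137 CPM in Prl-led wells, a difference of 3.39. Since the Pomc-led wells were all deep, the differences were also taken in wells with over 1000000 gene counts. They were 4.21 for Uqcrc1 and 3.74 for Sdha, but 2.69 for Ndufa9 and 2.44 for Ndufaf2, with Ndufv3 at 2.85 and Ndufa10 at 2.76 above the last pair.

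The members lower by the limit in Pomc-led wells were Cox6a2, by 1.22, and Sdhd, a membrane anchor of complex II, by 1.21. In the deep wells neither passed the limit (-0.63 and -0.86), and the member lower there was Sdhaf2 (-1.38). Sdhd was at 7.17 CPM in B2 and 3.06 CPM in F11 but at 859 in D10, 316 in E8 and 222 in H2, against 197 CPM as the median of Prl-led wells, so that its medians did not show the difference. In Gh-led wells Ndufaf3 differed most, with 66.2 CPM in B12, 2191 in C9, 178 in F4 and 188 in H11 against a median of 25.3 CPM in Prl-led wells (0 to 271), a difference of 3.68. Ndufa3, an accessory subunit of complex I, was at 173, 1637, 1843 and 1037 CPM in B12, C9, F4 and H11 against a median of 195 CPM in Prl-led wells (5.80 to 3507), a difference of 2.30. In the deep wells, which leave out C9, these differences were 2.31 for Ndufaf3 and 1.96 for Ndufa3, and Ndufa8 had the largest, 3.50. Over all wells used, the members lower by the limit in Gh-led wells were Cox6a2, by 2.29, and the factor Ndufaf7, by 1.00. In the deep wells they were Cox6a2 (-2.47), Ndufb11 (-1.29), Ndufaf7 (-1.19) and Cox7a2 (-1.02).

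The share of Prl in a well was also set against the summed level over the 46 wells. Over all gene counts Pearson's r with the log2 sum was -0.29 and Spearman's rho -0.26, and r was -0.19 without the 2 wells farthest from the median Prl share. With hormone counts left out the sign turned: r was 0.16, rho 0.23 and r without 2 wells 0.14. Prl counts are part of the total by which every level is scaled on the first scale. Within columns 1 to 3 and 7 to 9 rho was -0.27 over all counts and 0.17 without hormone counts (29 wells), and within the other columns -0.10 and 0.38 (17 wells). Neither relation was tested, and the points share the wells and their depth.

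**Figure D5:**
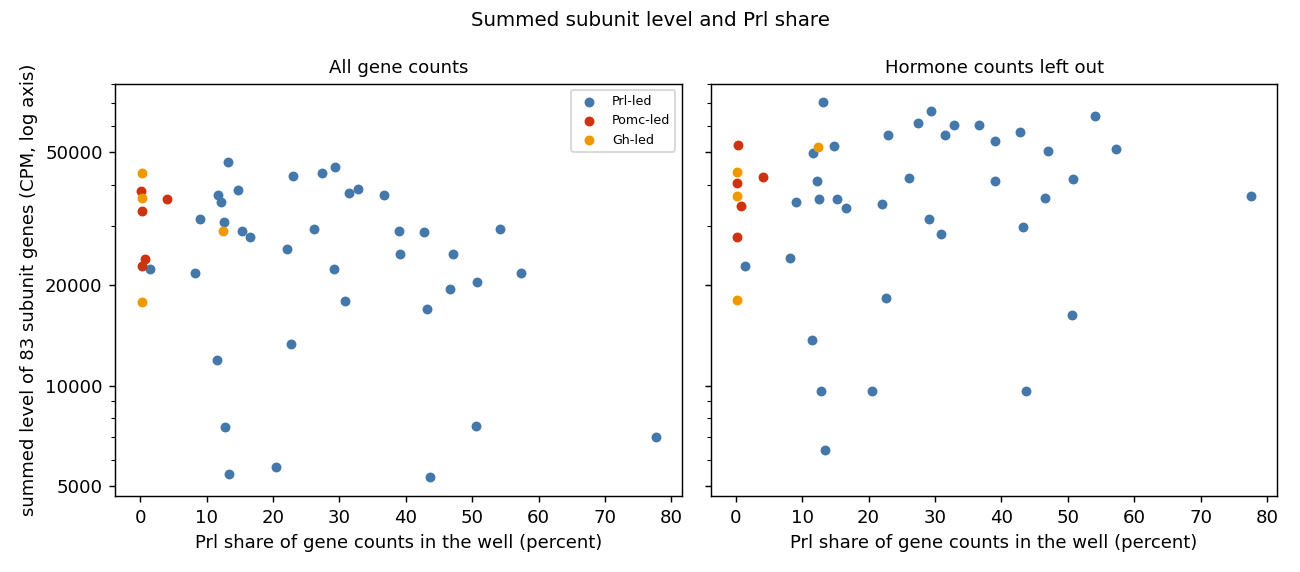
Summed level of the 83 subunit genes (y, CPM, log axis) against the share of Prl in gene counts (x, percent) in 46 wells coloured by leading hormone, over all gene counts (left) and with hormone counts left out (right). The cloud leans down on the left (rho -0.26) and up on the right (rho 0.23), and C2, with 77.7% Prl, moves from 7031 to 37071 CPM.

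Subunit genes varied together only in part. Each of the 76 subunits with a mean of at least 10 CPM was set against the sum of the others over 46 wells without hormone counts, and the median rho was 0.26, with 67 of 76 above 0. For 6968 other protein-coding genes against the subunit sum the median was 0.00 and 51.2% were above 0. These genes were not matched for level. Mean levels had a median of 206 CPM over the 84 members of this filter, against 32.5 CPM over all 7058 genes. The highest values were 0.56 for Atp5k and 0.55 for Cox7c and Atp5j, and the lowest -0.20 for Uqcrfs1, the Rieske protein of complex III, and -0.18 for Ndufs1. By complex the medians were 0.33 for complex IV, 0.26 for complexes I and III, 0.21 for complex V and 0.01 for complex II. Sums of complexes I and V had a rho of 0.72 and those of III and IV 0.61, while II had 0.13 with IV. Within the plate columns the median rho over subunits was 0.29 (29 wells) and 0.12 (17 wells). The sum had a rho of 0.48 with ribosomal protein genes, 0.32 with mitochondrially encoded genes and 0.04 with proteasome genes. The other genes most like it were Rps21 (0.65), Rpl41, Rps23, Ring1 and Rpl38 (0.57), of which all but Ring1 encode ribosomal proteins. Ring1 had a median of 0.275 CPM, under the detection limit of 1 CPM, against 129 CPM for Rps21. These are weak correlations in 1 set of wells and are given as descriptions.

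Promoters were searched for the letters of factors known for OXPHOS genes, since the members were seen together in most cells. RefSeq windows of 300 bases (GRCm38.p6), from 250 before to 50 after a start, matched 80 of the 97 members. The letters GCGCATGC, known from NRF1, stood on either strand in 12 of the 80 (15%), beside 3.94% of 17492 protein-coding genes and 6.81% of the 5609 of these with a mean of at least 10 CPM. The letters AAGATGGC, known from YY1, stood in 11 (13.8%), beside 3.57% and 6.61%. The letters CCGGAAG, known from ETS factors such as GABPA, stood in 21 (26.3%), beside 12.9% and 22.9%, so the second share is near that of the members. GGGCGG, known from SP1, stood in 39 (48.8%), beside 49.2% and 70.5%, and TATAAA in 8 (10%), beside 14.8% and 8.83%. The second share in each case is over genes with a mean of at least 10 CPM, which 71 of the 80 members had. Among these 71 the letters stood in 11 for NRF1, 11 for YY1, 18 for ETS factors, 33 for SP1 and 5 for TATAAA. TCAAGGTCA, known from estrogen-related receptors, stood in 2 (2.5%), Atp5g3 and Sdhd, beside 0.377% and 0.321%.

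The 250 bases before the start are shown for the ubiquitous isoform genes Cox6a1 and Cox6b1, which were above 10 CPM in all 46 wells, and for the testis isoform Cox6b2, at 0 in all, with the letters from NRF1 and ETS factors in capitals on either strand. They lie at chr5:115348959-115349208, chr7:30626115-30626364 and chr7:4753095-4753344, all on the minus strand.
Cox6a1: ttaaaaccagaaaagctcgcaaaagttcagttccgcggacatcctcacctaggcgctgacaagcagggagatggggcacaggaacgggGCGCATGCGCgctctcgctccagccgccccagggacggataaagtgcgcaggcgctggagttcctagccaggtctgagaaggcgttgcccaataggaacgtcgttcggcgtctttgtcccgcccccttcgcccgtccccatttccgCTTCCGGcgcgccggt
Cox6b1: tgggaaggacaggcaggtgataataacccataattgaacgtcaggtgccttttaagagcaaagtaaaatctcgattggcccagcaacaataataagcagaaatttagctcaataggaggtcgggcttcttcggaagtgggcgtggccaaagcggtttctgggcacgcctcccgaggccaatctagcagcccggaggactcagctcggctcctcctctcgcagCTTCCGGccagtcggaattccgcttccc
Cox6b2: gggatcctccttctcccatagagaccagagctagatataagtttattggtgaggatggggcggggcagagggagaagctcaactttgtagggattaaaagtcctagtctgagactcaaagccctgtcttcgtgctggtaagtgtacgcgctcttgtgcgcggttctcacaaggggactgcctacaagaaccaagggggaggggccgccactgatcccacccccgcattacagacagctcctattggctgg
In Cox6a1 the letters from NRF1 stand on both strands, beginning 162 and 160 bases before the start and overlapping each other, and those from ETS factors begin 16 bases before it. In Cox6b1 the latter begin 28 bases before the start. Neither set of letters stands in this window of Cox6b2, nor in the windows of the ubiquitous genes Cox7a2, Cox7b, Ndufa4 and Atp5g1, so these letters do not separate genes seen in the wells from genes at 0. A match is a description of the letters and not of a bound site.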

How the data were processed

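Estimated counts of reads on each gene, not scaled to depth, were deposited for the 56 wells; the submitters' processing notes name STAR 2.5.1b, featureCounts 1.5.0-p1 and mm10, while annotation release and strand setting are not given for these wells in the sources used here (GENCODE M8 is named for the bulk libraries of the study). No molecular identifiers were used, so counts are reads. Of the members' values above 0, 31.2% were not whole (tolerance 1e-09). Symbols, positions and lengths came from GENCODE M21 on GRCm38 (46488 of 47069 identifiers matched); mRNA length is the median over protein-coding transcripts. CPM excluded the 92 spike-ins. Levels between genes were compared per kb, except where a rule names genes by CPM or counts; logs are log2(CPM + 1). Shares have Clopper-Pearson intervals; a count of 0 allows 3. Differences of 1 in mean log2 were counted over genes with a mean of at least 10 CPM. Doublets were not called; leaving out the tenth of wells with the most genes stood in. Named genes were the core list, the isoform families, the highest, lowest, most and least variable subunit of each complex, up to 4 assembly factors, 6 partners by median and the 5 genes most like the sum; split genes, single wells, regulators and genes with the largest differences between groups were named after their values were seen. The members and lists were chosen with earlier results of these data known. Alternatives changed the total, depth, wells, pseudocount, filter, detection limit and length. A withheld item is not reported here. The code was tested on simulated data. Python 3.11.15, numpy 2.4.6, pandas 2.3.3, scipy 1.17.1 and matplotlib 3.10.9 were used.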

Additional observations from a re-analysis of the deposited data

Results flagged for a closer look

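The 10 wells with under 100000 gene counts enter no comparison, and they carry subunit counts too. Subunit genes took a median of 3.04% of their gene counts (range 0.280% to 7.82%) at depths of 357 to 96288 gene counts, with 1 to 81 members at 1 count or more. No well stood apart by Dixon's ratio in the sums of the Pomc-led or Gh-led wells, over 24 groups of values; chance marks about 1 in 20 groups.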

How the results depend on the processing

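Of 139 alternative values for 23 results, 107 kept their direction and moved by less than the limit of that result (1.5 times for counts, otherwise 1 SD, the counting interval or, for the rho with Prl share, 0.1). Within these limits the log2 ratios of medians to Prl-led wells still fell from 0.38 to 0.12 (Pomc-led) and from 0.35 to 0.12 (Gh-led) without hormone counts, and the latter was 0.70 in deep wells; the median rho of subunits fell from 0.26 to 0.12 in columns 4 to 6 and 10 to 12. The relation of the summed level to the Prl share reversed with hormone counts out of the total (rho 0.23) and was -0.10 in columns 4 to 6 and 10 to 12. The 36 subunits with whole counts in nearly all wells summed to 7441 CPM, since fewer genes were summed. Members per well fell to 74.5 at a limit of 10 CPM. Isoform shares moved with the weighting. As medians over wells they were 0.670% (Cox6a2), 0 (Cox7a1 and Cox4i2), 5.28% (Atp5g2), 16.6% (Atp5g3) and 15.9% (Cox7a2l); per exon length 4.84% (Cox6a2), 1.97% (Cox7a1), 11.1% (Atp5g2), 33.1% (Atp5g3) and 10.4% (Cox7a2l); per mRNA length 3.98%, 1.69%, 13.5%, 42.9% and 9.80%. Cox6a2 was 3.61% without G10 and 3.27% without H9, and Cox7a1 0.655% without H2. Members lower in Pomc-led wells numbered 0 with a pseudocount of 10, 4 by medians and 1 in deep wells; in Gh-led wells 1 with a pseudocount of 10, 4 without hormone counts, 1 by medians, 1 without H4 and 4 in deep wells, and 16 were higher there without hormone counts. Apart from these constructions the cause was not tested. Leaving out each Pomc-led well in turn, the log2 ratio of medians to Prl-led wells ran from 0.16 to 0.44. Leaving out each Gh-led well in turn, it ran from 0.18 to 0.51 for that group. Prl-led wells were not left out in turn. The whole-count subunits, the mRNA lengths, G10, H9, H2, H4 and the deep wells were chosen after seeing the data. No paired analysis was possible because all wells form 1 group. Low depth limits the reading of single genes at or near 0 in wells of few counts.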
